A study of Homo sapiens with 4 samples.

Results

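The amino acid transporters analysed here were the probe sets of an Affymetrix expression array whose annotation names a single gene of the SLC7, SLC38, SLC36 or SLC43 families, SLC3A1 or SLC3A2, or SLC1A1, SLC1A4, SLC1A5, SLC1A6 or SLC1A7. The rule left out 1 further SLC7 gene. It selected 35 of the 18304 genes named by a probe set of their own, with 77 of the 41920 probe sets other than array controls. Of these genes, 19 had several probe sets, with at most 7 for SLC38A10, and 16 had a single one. The rule reads gene names and uses no measured value, but it was set with earlier results of these data known.

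U87, the source of all RNA, is an established line of human glioma cells. Every sample carried a knockdown of QK, the RNA-binding protein also written QKI. In 2 samples the cells had also been transduced with miR-20a, and in the other 2 with miR-NT, a scrambled non-targeting control microRNA. The comparison addresses what adding miR-20a does to transcript levels on the background of QK loss. Cells without the knockdown were not analysed here. The labels give neither the time after transduction nor the vector, nor do they state that replicates were grown separately. The p-values therefore reflect the scatter among these samples alone, and that scatter may be technical.

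Amino acids cross membranes through several transporter families. Heteromeric exchangers pair an SLC3 heavy chain with an SLC7 light chain and swap 1 amino acid for another, so they need a partner that brings amino acids in. The sodium-coupled SLC38 carriers and the SLC1 neutral exchangers supply glutamine and small neutral amino acids, and the cationic SLC7 carriers supply arginine and lysine. Leucine, arginine and glutamine that enter in this way are sensed by mTORC1 at the lysosome, and shortage of amino acids induces several transporters through the transcription factor ATF4. In glioma cells these carriers are known as routes of glutamine and leucine uptake.

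A microRNA recognises transcripts mainly through its seed, bases 2 to 8 of the mature strand. The supplied miR-20a is shown with other human microRNAs that carry the same seed, as RefSeq (GRCh38.p14) gives them, with the seed in capitals. In all, 8 mature human microRNAs of that table shared it, and 5 are printed to show where related members differ outside the seed.
miR-20a-5p: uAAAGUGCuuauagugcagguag
miR-17-5p: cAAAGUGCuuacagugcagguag
miR-20b-5p: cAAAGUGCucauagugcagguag
miR-93-5p: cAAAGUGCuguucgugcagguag
miR-106b-5p: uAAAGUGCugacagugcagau
The miR-20a strand lies on chromosome 13, at chr13:91351072-91351094 on the plus strand, 1 of several microRNAs of a shared host transcript. These arrays do not measure the mature miR-20a, and target sites in the transporter transcripts were not analysed here.

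No transporter probe set passed the test. In the limma fit over all probe sets, 0 of 77 reached an adjusted p of 0.05, where 57 of 41920 (0.136%) did, and 0 passed at 0.10, where 0.379% of all probe sets did. An unadjusted p under 0.05 was found for 13 of 77 (16.9%), against 17.9% of all probe sets, so the share among transporters was close to the background. Of these 13, 7 had a higher mean in miR-20a cells (9.46% of all probe sets did) and 6 a lower one (8.4% of all). They belonged to 5 genes in the first direction, SLC38A2, SLC38A6, SLC36A1, SLC1A1 and SLC7A1, and to 4 in the second, SLC38A1, SLC43A3, SLC43A1 and SLC7A4. Without miR-NT replicate 1 the count was 7 of 77, against 7.71% of all probe sets. Of those, 6 were higher (4.43% of all) and 1 was lower (3.27% of all), the one lower being SLC43A3. The median log2 change, miR-20a minus miR-NT, was -0.01 over the transporters and -0.02 over all probe sets. Changes lay within 0.2 log2 units of zero for 54 of the 77 and exceeded 0.5 units for 2.

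**Figure D1:**
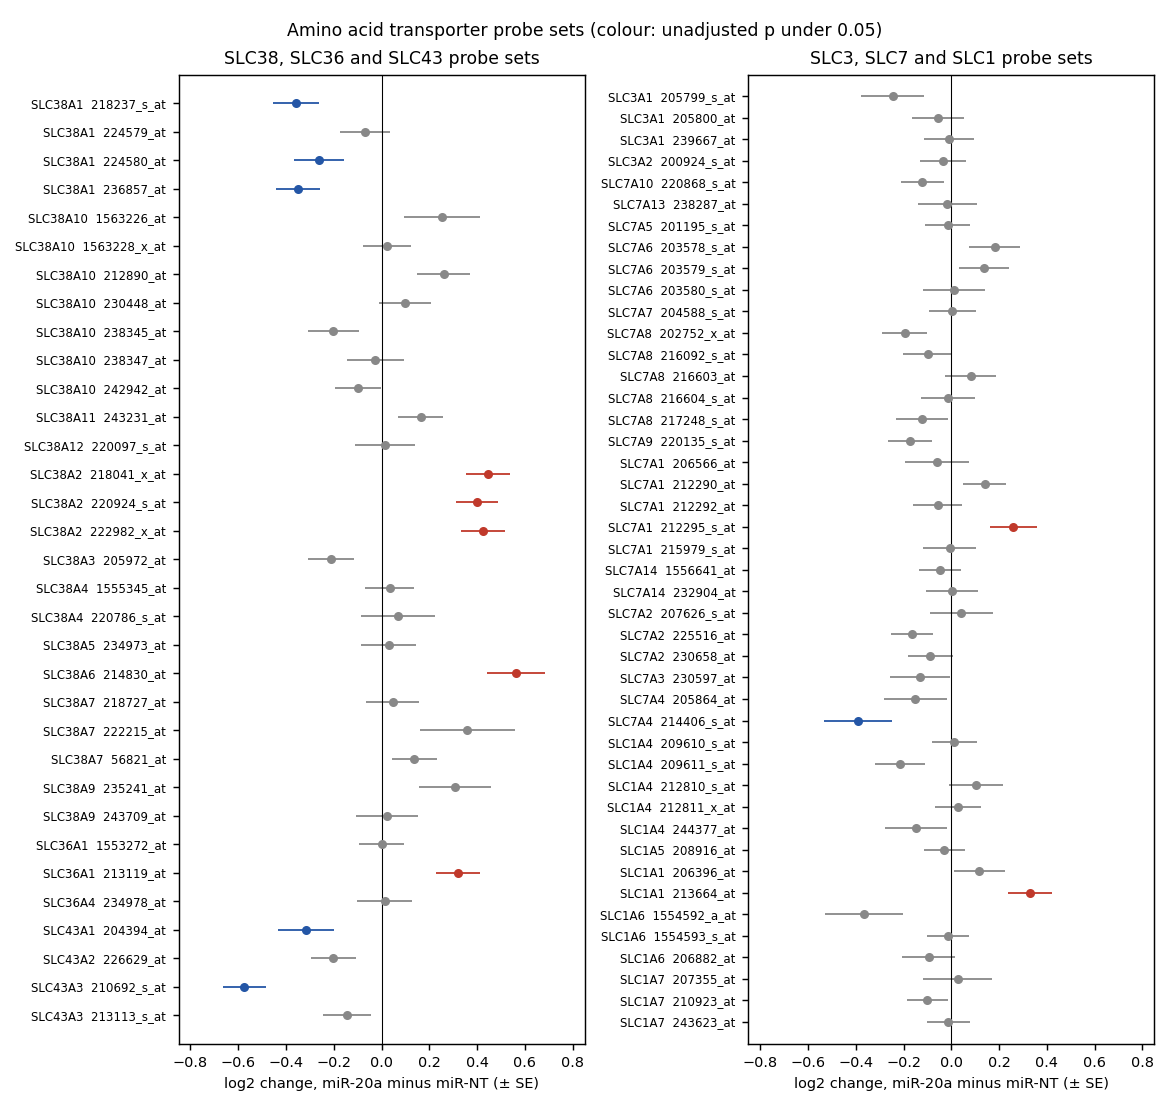
Log2 change (miR-20a minus miR-NT, horizontal axis) of each of the 77 transporter probe sets, with points for the estimate and bars for its standard error from the limma fit. Red and blue mark an unadjusted p under 0.05 with a higher or a lower mean in miR-20a cells. The 3 SLC38A2 probe sets lie together on the right, all 4 SLC38A1 probe sets lie left of zero, and none of the 77 passed after adjustment.

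The SLC38 family held the widest range of changes, from -0.36 to 0.56 log2 units over 26 probe sets of 11 genes. Of these, 18 lay above zero and 8 below it, with a median change of 0.04, and 7 (26.9%) had an unadjusted p under 0.05, where 17.9% of all probe sets did. The 7 belonged to SLC38A2 (3 higher), SLC38A1 (3 lower) and SLC38A6 (1 higher), so the share rests on repeated probe sets of few genes. Over all probe sets, 18753 lay above zero and 23166 below it. SLC38A2, a sodium-coupled importer of alanine, glutamine and other small neutral amino acids that is known to be induced by amino acid shortage, was measured by 3 probe sets with nearly equal results. Probe set 218041_x_at read 11.89 and 11.90 log2 units with miR-NT and 12.41 and 12.28 with miR-20a. Probe set 222982_x_at read 11.81 and 11.90 against 12.32 and 12.24, and probe set 220924_s_at read 11.82 and 11.81 against 12.24 and 12.19. In all 3, each miR-20a array lay above each miR-NT array. Their log2 changes were 0.45 ± 0.09, 0.42 ± 0.09 and 0.40 ± 0.09 (SE, n = 2 each), or 1.36-fold, 1.34-fold and 1.32-fold. None passed, each with an adjusted p of 0.14 (limma), and the 95% interval of the first ran from 0.22 to 0.67. All 3 target the same gene, and the suffixes of their names are those Affymetrix gives to probe sets that may match more than 1 transcript, so they do not count as separate measurements.

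SLC38A2 lay high on the array's scale, where changes were more often positive. Among the 531 probe sets with a mean level of 12 log2 units or more, a limit chosen after the SLC38A2 values were seen, the median change was 0.11, and 24.1% had an unadjusted p under 0.05 with a higher mean for miR-20a. Over all probe sets, the change and the mean level correlated at a Spearman rho of 0.22, and over the 77 transporters at 0.16. These are descriptions across probe sets that share the same arrays. After quantile normalization, which gives each array the same distribution, the SLC38A2 changes were 0.30, 0.25 and 0.23 (limma adjusted p from 0.21 to 0.28). In contrast, they passed with a mean-variance trend and a robust fit, at limma adjusted p-values of 0.027 to 0.029, a setting in which 2.28% of all probe sets passed.

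**Figure D2:**
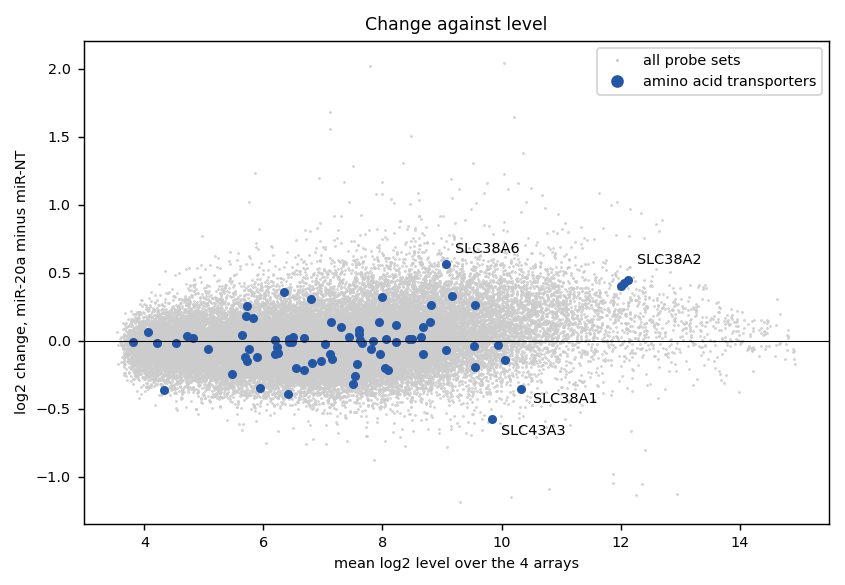
Log2 change (miR-20a minus miR-NT, vertical axis) against the mean log2 level over the 4 arrays (horizontal axis), for all 41920 probe sets in grey and the 77 transporters in blue. SLC38A2 lies at a mean level near 12, with changes of 0.40 to 0.45, and most transporters lie inside the grey cloud within 0.2 log2 units of zero.

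SLC38A1, the closest relative of SLC38A2 and a glutamine importer of neurons and tumour cells, had the opposite sign in all 4 of its probe sets. Probe set 218237_s_at read 10.59 and 10.44 log2 units with miR-NT and 10.18 and 10.13 with miR-20a. Probe set 236857_at read 6.15 and 6.09 against 5.72 and 5.83, and probe set 224580_at read 7.60 and 7.72 against 7.31 and 7.49. In these 3 every miR-20a array lay below every miR-NT array. Their changes were -0.36 ± 0.10, -0.35 ± 0.09 and -0.26 ± 0.10 (SE, n = 2 each), with limma adjusted p-values of 0.17, 0.16 and 0.27. The remaining one, 224579_at, overlapped between the groups, at 9.11 and 9.10 against 9.15 and 8.93, with a change of -0.07 ± 0.11. Quantile normalization moved them in different directions, the first to a larger difference of -0.49 (limma adjusted p = 0.12) and the other 2 to smaller ones of -0.30 and -0.23 (limma adjusted p = 0.21 and 0.34). Without miR-20a replicate 1 the change of 224580_at was -0.17.

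SLC38A1 and SLC38A2 are neighbours on chromosome 12, with SLC38A4 next to SLC38A2 in the order of RefSeq genes. To set the pair side by side, the probe sets of each gene were averaged on each array and expressed relative to the gene's miR-NT mean. SLC38A1 then lay at 0.01 and -0.01 with miR-NT and at -0.26 on each miR-20a array. SLC38A2 lay at -0.01 and 0.01 and at 0.47 and 0.38. The difference between the genes within an array was larger by 0.68 log2 units in miR-20a cells, with SDs of 0.04 and 0.06 over the 2 arrays of each group. The pair was singled out after these values were seen, and with 2 arrays against 2 an exact permutation test cannot give a p below 0.333. SLC38A4, an importer known mainly from liver and placenta, had changes of 0.03 and 0.07, at levels near the bottom of the scale.

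The promoter windows of this neighbouring pair are printed to show how different they are in sequence. Each runs from 250 bases before to 50 bases after the RefSeq gene start (GRCh38.p14), on the minus strand and 5′ to 3′ along the gene. The windows are chr12:46266467-46266766 for SLC38A1 and chr12:46372724-46373023 for SLC38A2. Capitals mark TGATGNAA, the core of the amino acid response element that ATF4 binds with C/EBP partners.
SLC38A1: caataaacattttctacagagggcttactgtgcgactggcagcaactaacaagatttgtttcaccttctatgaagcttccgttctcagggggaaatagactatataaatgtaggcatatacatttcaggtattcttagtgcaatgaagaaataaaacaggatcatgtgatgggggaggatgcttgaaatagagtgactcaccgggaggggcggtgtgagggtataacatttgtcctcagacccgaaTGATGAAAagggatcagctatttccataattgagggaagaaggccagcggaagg
SLC38A2: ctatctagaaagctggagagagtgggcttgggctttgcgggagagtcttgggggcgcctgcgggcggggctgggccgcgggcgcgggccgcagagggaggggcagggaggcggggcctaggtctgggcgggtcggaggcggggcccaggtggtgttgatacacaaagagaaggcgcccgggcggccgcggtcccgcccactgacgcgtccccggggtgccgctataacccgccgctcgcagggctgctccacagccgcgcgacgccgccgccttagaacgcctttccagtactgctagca
The SLC38A1 window holds 43.3% G and C and the SLC38A2 window 72%. Windows were found for 28 of the 35 transporter genes. Searched on both strands, TGATGNAA occurred in 3 of the 28 (10.7%), those of SLC38A1, SLC3A2 and SLC7A1, and in 3.67% of all 27305 windows of this length. The E-box CACGTG, which reads the same on both strands and is bound by MYC and by lysosomal transcription factors such as TFEB, occurred in 5 of the 28 (17.9%), against 7.43% of all windows. Those 5 were SLC1A7, SLC38A5, SLC38A7, SLC43A1 and SLC7A5, and 0 windows held both motifs. Both motifs were chosen after values of these data were seen. A match describes letters in the window and is not a binding site. Elements outside these windows were not searched, so a window without a match does not mean that the gene lacks the element.

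Among the other SLC38 genes, SLC38A6, a less well characterised member of the family, had the largest positive change of all 77 probe sets. Its single probe set, 214830_at, read 8.66 and 8.92 log2 units with miR-NT and 9.43 and 9.28 with miR-20a. The groups did not overlap, although the miR-NT arrays differed from each other more than the miR-20a arrays did. The change was 0.56 ± 0.12 (SE, n = 2 each, 1.48-fold, limma adjusted p = 0.14), and it passed with a mean-variance trend and a robust fit (limma adjusted p = 0.045). SLC38A9, the lysosomal arginine sensor upstream of mTORC1, had a change of 0.31 ± 0.15 by probe set 235241_at. The value came mostly from miR-20a replicate 1, which read 7.17 log2 units, while miR-20a replicate 2 read 6.73 and the miR-NT arrays 6.68 and 6.60. Its other probe set had a change of 0.02. SLC38A7, a lysosomal glutamine exporter, was above zero in all 3 probe sets, from 0.05 to 0.36. The highest of these, 222215_at, came from miR-20a replicate 2 alone, at 6.86 against 6.16 to 6.21 on the other arrays.

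SLC38A10 was the member with the most probe sets, and they differed in sign, with 4 above and 3 below zero and a range from -0.20 to 0.26. The probe set with the highest level, 212890_at, read 8.81 and 8.56 log2 units against 8.98 and 8.91, a change of 0.26 ± 0.11 (limma adjusted p = 0.29). Its groups did not overlap, but the gap between them was smaller than the spread of the miR-NT arrays, and the change was 0.38 without miR-NT replicate 1 and 0.14 without miR-NT replicate 2. SLC38A3, an exporter and importer of glutamine and histidine, had a change of -0.21 ± 0.10. SLC38A5, its nearest relative, had 0.03, SLC38A11 had 0.16 and SLC38A12 had 0.01, each by a single probe set.

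**Figure D3:**
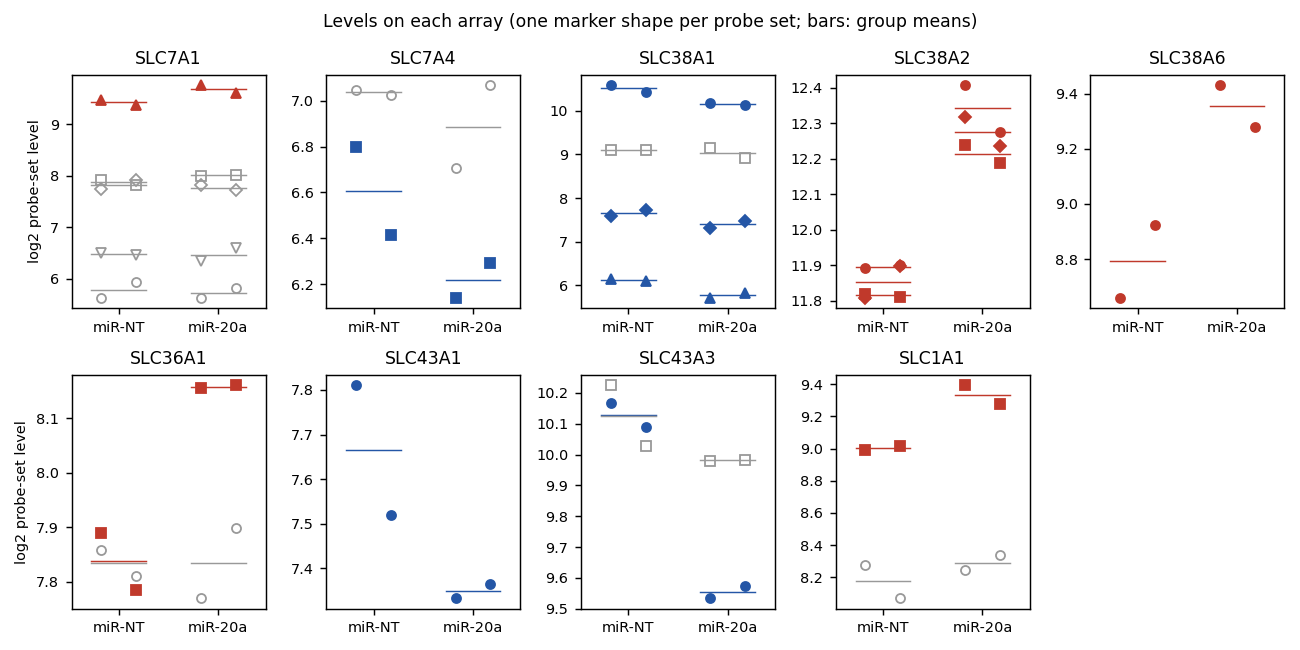
Log2 level on each array (vertical axis, with its own range in each panel) for the 9 transporter genes with a probe set at an unadjusted p under 0.05, with miR-NT arrays on the left and miR-20a arrays on the right of each panel. Each marker shape is 1 probe set, horizontal bars are group means, filled markers had an unadjusted p under 0.05 and open grey ones did not. The SLC38A2 markers separate clearly, whereas SLC43A3, SLC36A1 and SLC7A1 each combine 1 filled probe set with open ones.

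The largest negative change was that of SLC43A3. The SLC43 family is related in sequence to facilitated carriers of branched-chain amino acids, but SLC43A3 is itself known as a carrier of purine nucleobases. Probe set 210692_s_at read 10.17 and 10.09 log2 units with miR-NT and 9.53 and 9.57 with miR-20a. The gap between the groups was several times the spread within either. The change was -0.57 ± 0.09 (SE, n = 2 each), a level 1.49-fold lower in miR-20a cells, with a limma adjusted p of 0.10. Its other probe set, 213113_s_at, read 10.22 and 10.03 against 9.98 and 9.98, which differed by -0.15 ± 0.10 (limma adjusted p = 0.50). The direction was therefore shared while the size was not, and a value for the gene depends on the probe set taken. The first probe set passed when the lowest 40% of probe sets by level were left out (limma adjusted p = 0.040, 1.33% of all probe sets passing) and with a mean-variance trend and a robust fit (adjusted p = 0.016, limma).

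In all 4 SLC43 probe sets each miR-20a array lay below each miR-NT array, with a median change of -0.26. Over all probe sets, 27.2% had groups that did not overlap with miR-20a lower and 21.7% with miR-20a higher. SLC43A1, a carrier of leucine and other branched-chain amino acids, read 7.81 and 7.52 log2 units against 7.33 and 7.36. Its change, -0.32 ± 0.12 (limma adjusted p = 0.24), was -0.17 without miR-NT replicate 1. SLC43A2, the related carrier of epithelia, read 8.20 and 8.08 against 7.98 and 7.90, a change of -0.20 ± 0.09 (limma adjusted p = 0.32). For both genes the gap between the groups was smaller than the difference between the miR-NT arrays. Counting all families, 18 transporter probe sets were lower and 14 higher without overlap, together 41.6% of the 77, where 48.9% of all probe sets were so separated.

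The heavy chains of the heteromeric exchangers had 0 of 4 probe sets at an unadjusted p under 0.05, where 17.9% of all probe sets had one. SLC3A2, the CD98 heavy chain that carries most light chains to the cell surface, read 9.62 and 9.49 log2 units with miR-NT and 9.56 and 9.48 with miR-20a. Its change was -0.04, with a 95% interval of -0.27 to 0.19. SLC7A5, the light chain LAT1 that exchanges leucine and other large neutral amino acids for glutamine, read 7.69 and 7.64 against 7.72 and 7.59, a change of -0.01 with an interval of -0.24 to 0.21. For both genes the groups overlapped. SLC3A1, the heavy chain of the renal cystine transporter, had 3 probe sets below zero, from -0.25 to -0.01. The lowest of these, 205799_s_at, was -0.07 without miR-NT replicate 1 and -0.42 without miR-NT replicate 2. Its usual partner SLC7A9 had -0.17 ± 0.09, and -0.11 without miR-NT replicate 1.

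Of the light chains, 0 of the 13 probe sets that the rule kept had an unadjusted p under 0.05, against the same 17.9%. The SLC7 gene that the rule left out is not counted here. SLC7A6, an exchanger of arginine for neutral amino acids, was above zero in all 3 probe sets, from 0.01 to 0.18. The highest of these was 0.29 without miR-NT replicate 1 and 0.07 without miR-NT replicate 2. The related SLC7A7 had a change of 0.00. SLC7A8, the light chain LAT2 of broad neutral specificity, was below zero in 4 of 5 probe sets. By 202752_x_at it read 9.68 and 9.63 log2 units against 9.40 and 9.53, a change of -0.20 ± 0.09 (limma adjusted p = 0.33). SLC7A10, an alanine-serine-cysteine exchanger, had -0.12 and SLC7A13 -0.02.

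Of the cationic carriers, SLC7A1, the widely expressed arginine importer CAT1, gave different answers by probe set. Probe set 212295_s_at read 9.48 and 9.38 log2 units with miR-NT and 9.76 and 9.62 with miR-20a, with no overlap. This was a change of 0.26 ± 0.10 (SE, n = 2 each, limma adjusted p = 0.25). Of the other 4 probe sets, 212290_at had 0.14 and the remaining ones lay between -0.06 and -0.01. The mean over its probe sets was 0.06. SLC7A4, a relative of the cationic carriers without a settled substrate, had changes of -0.39 ± 0.14 (214406_s_at) and -0.15 ± 0.13. The first came with a wide spread, at 6.80 and 6.42 against 6.14 and 6.29, and was -0.20 without miR-NT replicate 1. SLC7A2, an arginine carrier inducible in macrophages, ranged from -0.16 to 0.04 over 3 probe sets, SLC7A3 had -0.13, and SLC7A14 had -0.05 and 0.00.

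The proton-coupled carrier SLC36A1, which releases small amino acids from the lysosome and takes part in mTORC1 activation, also differed by probe set. Probe set 213119_at read 7.89 and 7.79 log2 units against 8.16 and 8.16, a change of 0.32 ± 0.09 (limma adjusted p = 0.17). Probe set 1553272_at read 7.86 and 7.81 against 7.77 and 7.90, with the groups overlapping and their means almost equal (95% interval -0.22 to 0.22). SLC36A4, a high-affinity relative, had a change of 0.01 with an interval of -0.26 to 0.29.

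Within the SLC1 family, SLC1A1, the glutamate and cysteine importer EAAT3, was above zero by both probe sets. By 213664_at it read 8.99 and 9.02 log2 units with miR-NT and 9.39 and 9.28 with miR-20a. The groups did not overlap, and the change was 0.33 ± 0.09 (limma adjusted p = 0.17), whereas 206396_at had 0.12 ± 0.11 with overlapping groups. SLC1A5, the glutamine exchanger ASCT2, read 9.97 and 9.96 against 9.96 and 9.91. Its change of -0.03 had a 95% interval of -0.24 to 0.18 and depended on the scaling, at 0.0041 after median centring, -0.15 after quantile normalization and -0.14 after cyclic loess. SLC1A4, the related exchanger ASCT1 of alanine, serine and cysteine, had 3 probe sets above and 2 below zero, from -0.22 to 0.10. The lowest of these, 209611_s_at, was -0.11 without miR-NT replicate 1, while the brightest probe set of the gene had 0.03. The glutamate transporters SLC1A6 of Purkinje cells and SLC1A7 of the retina ranged from -0.36 to -0.01 and from -0.10 to 0.03, and the lowest of these values, of SLC1A6 probe set 1554592_a_at, came from levels of 4.63, 4.39, 4.36 and 3.92 near the bottom of the scale. With miR-20a replicate 1 left out that value was -0.59, and with the other miR-20a array left out it was -0.14.

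Probe sets of 1 gene did not always share a sign. Of the 19 genes with several, 11 had all of them on 1 side of zero. With each gene represented by its brightest probe set, the one of highest mean level, 0 of 35 transporter genes passed, against 0.426% of 18304 genes, and the smallest adjusted p was 0.084 (limma), that of SLC38A2. An unadjusted p under 0.05 was reached by 6 higher and 2 lower genes (12.6% and 9.24% of all genes). Other solute carrier genes, with 608 probe sets, had 17.4% at an unadjusted p under 0.05, a median change of -0.04, and 0 past the threshold (limma).

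Genes that act around the transporters were described by lists compiled from general knowledge, with 1 probe set per gene. Of 33 measured genes of amino acid sensing and mTORC1, 1 rose and 0 fell past the threshold, which 0.426% of all genes passed. Before adjustment, 11 were higher and 1 was lower (p under 0.05), where 12.6% of all genes were higher and 9.24% lower. Their median change was 0.13, against -0.01 over all genes. Their mean level was 8.70 to 8.75 on miR-NT and 8.85 to 8.88 on miR-20a arrays, above the array medians of 6.97 to 7.01. Changes were more often positive at high levels, as given above, and the part of level in this list was not tested. DEPTOR, an inhibitory subunit of the mTOR complexes, read 8.87 and 8.78 log2 units with miR-NT and 9.64 and 9.54 with miR-20a. It rose by 0.76 ± 0.09 (SE, limma adjusted p = 0.033 over genes). In the fit over all probe sets its adjusted p was 0.063 (limma). With the replicate number as a block it was 0.36 (limma), where 0% of all probe sets passed. With 1 array left out the change of DEPTOR ranged from 0.71 to 0.81. The Ragulator subunits LAMTOR5 and LAMTOR3, which anchor the Rag GTPases to the lysosome, had changes of 0.47 and 0.47 (adjusted p = 0.084 and 0.088, limma). RRAGA, a Rag GTPase, had 0.40.

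Of 22 amino acid response genes, 1 rose and 0 fell (0.426% of all genes passed). Before adjustment, 6 were higher and 0 lower (p under 0.05), against 12.6% and 9.24% of all genes, and the median change was 0.01. The one that rose was STC2, a secreted glycoprotein and known ATF4 target, whose 2 probe sets had changes of 1.38 and 1.02. Both passed over all probe sets (limma adjusted p = 0.024 and 0.025). With the replicate number as a block neither passed (limma adjusted p = 0.36 for each), where 0% of all probe sets did. The changes were 1.49 and 1.05 without miR-NT replicate 1, and 1.27 and 0.98 without miR-NT replicate 2. Without miR-20a replicate 1 they were 1.33 and 1.02, and without miR-20a replicate 2 they were 1.43 and 1.01. MTHFD2, a mitochondrial folate enzyme, had 0.41, ASNS, the asparagine synthetase, 0.34 (limma adjusted p = 0.10) and NUPR1, a stress-induced chromatin protein, 0.34. In the whole response list, 14 genes lay above and 8 below zero. Some further members are named outside the rule given below. Of these, CEBPB and ATF3, also higher before adjustment (p under 0.05), had 0.30 and 0.33. ATF4 itself had -0.01, and DDIT3, TRIB3 and CHAC1 had 0.01, 0.01 and -0.01. These are transcript levels, and ATF4 protein or activity was not tested. Of 17 aminoacyl-tRNA synthetases 0 passed (limma), where 7 were higher and 0 lower before adjustment (p under 0.05; 12.6% and 9.24% of all genes), with a median of 0.13. The mean level of the synthetases was also high, at 10.25 to 10.31 on miR-NT and 10.37 to 10.44 on miR-20a arrays. The part of level in their changes was not tested. The synthetases with the smallest p were NARS1, CARS1, LARS1 and SARS1, with log2 changes of 0.38, 0.35, 0.27 and 0.26. LARS1 also stands in the sensing list, and SESN2 and DDIT4 stand in both the sensing and the response list. Among 20 other amino acid carriers 0 passed (limma), where 2 were higher and 1 lower before adjustment (p under 0.05; 12.6% and 9.24% of all genes), with a median of -0.09. The neutral amino acid importer SLC6A15 had 0.42, the proline transporter SLC6A20 -0.37, the taurine transporter SLC6A6 0.29 and the glial glutamate transporter SLC1A3 -0.20.

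Facts of the arrays that touch these values were as follows. Median log2 levels lay between 6.97 and 7.01 on the 4 arrays. As a sign of RNA quality, the ACTB control's 3′ probe set exceeded its 5′ one by 0.20 and 0.35 log2 units in miR-NT and by 0.52 and 0.46 in miR-20a cells. For the GAPDH control the same gap was 0.22 and 0.22 in miR-NT and 0.27 and 0.28 in miR-20a cells. Both gaps were larger in miR-20a cells, that of GAPDH by less, and their part in the differences above was not tested. QKI had 4 probe sets above and 6 below zero and 0 that passed (limma, smallest adjusted p 0.168), which compares knocked-down samples with each other. Among cell markers, VIM and CD44, which U87 is known to express, read at least 14.63 and 12.43, and the astrocyte marker GFAP between 6.94 and 7.33. SOX2, OLIG2, FABP7, AQP4 and S100B of the same list had group means of at most 7.14. Its members NES, MBP and SOX9 had miR-NT means of 8.21, 7.99 and 7.31. Of the 7 endothelial markers, PECAM1 read highest, with a mean of 8.73 with miR-NT and 8.66 with miR-20a. TEK had 8.64 and 8.55. CLDN5, VWF, KDR, ERG and CDH5 read lower, with means from 4.77 to 7.13 with miR-NT and from 4.79 to 6.99 with miR-20a. Of 11 glial and glioma markers 0 passed (limma), where 3 lay above and 8 below zero with a median of -0.13, and 0 were higher and 2 lower before adjustment (p under 0.05; 12.6% and 9.24% of all genes). Those 2 were SOX9, a glial transcription factor, at -0.44 and FABP7, a fatty acid binding protein of radial glia, at -0.26. The mean level of this list was 8.01 to 8.06 on miR-NT and 7.90 to 7.91 on miR-20a arrays. No epithelial (8 measured), blood (5) or endothelial (7) marker passed (limma). The epithelial list had 2 above and 6 below zero (median -0.04), the blood list 2 and 3 (-0.01) and the endothelial list 1 and 6 (-0.09). Before adjustment, 0 were higher and 1 was lower in each of these lists (p under 0.05), against the same shares of all genes. The mean level of the epithelial list was 6.61 to 6.62 on miR-NT and 6.56 to 6.57 on miR-20a arrays, of the blood list 7.24 to 7.26 and 7.06 to 7.32, and of the endothelial list 6.95 to 6.96 and 6.84. These values carry no detection calls, so none of the markers can be called absent, and their part in the results was not tested.

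**Figure D4:**
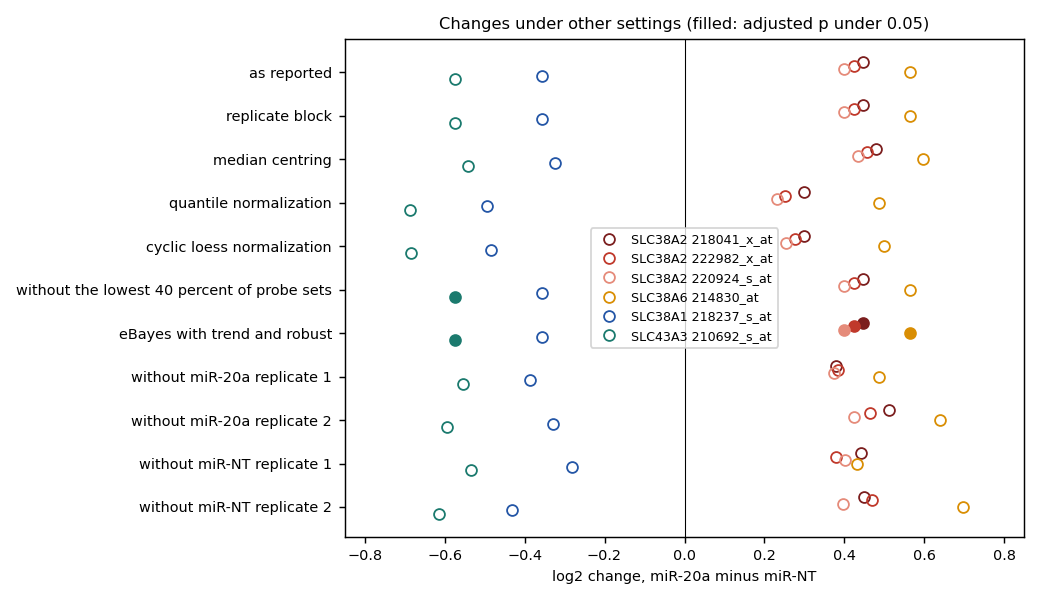
Log2 change (miR-20a minus miR-NT, horizontal axis) of 6 transporter probe sets, as reported and under each other setting of the probe-set fit (rows), with filled symbols for an adjusted p under 0.05 in limma. All symbols keep their side of zero in these settings, and filled symbols appear in 2 settings, for SLC43A3 alone without the lowest 40% of probe sets and for SLC43A3, SLC38A6 and SLC38A2 with a mean-variance trend and a robust fit.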

How the data were processed

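The authors deposited a log2 level for every probe set on every array, from biotin-labelled cRNA made from 6 µg of total RNA, per the labels' protocols. Of tools, affy is the one in the submitters' processing notes. How background, scaling and summarization were handled is not given in the sources used here, and the log2 base was taken from the range of the values, whose highest was 15.07. That scaling was kept, with no filter on low values. Gene names came from the platform's GEO annotation. Symbols were checked by Entrez identifier against RefSeq, and 0 of the transporter symbols changed. The 10 array controls were left out.

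miR-20a was compared with miR-NT with R 4.3.3 and limma 3.58.1 (functions lmFit and eBayes, group as the term, all 4 arrays), over all 41920 probe sets, with Benjamini-Hochberg adjustment over all of them and a threshold of 0.05. Intervals are 95% intervals of this fit. Lists and genes as units used a fit over 18304 genes, each by its probe set with the highest mean. On data simulated with the spread of these arrays, this probe-set fit called 2.6% of the rises set to 0.5 log2 units, 84.9% of those set to 1 and 97.1% of those set to 1.5. Each simulation changed 200 of the 41920 probe sets, with independent noise. Recovery depends on that share, which may differ in these data. Other settings were a replicate block, quantile, median and cyclic loess scaling, a filter on low levels, a trend and robust fit, other uses of probe sets, a threshold of 0.10 and leaving out each array. A crossed pairing was added after seeing the data. The members, the lists and the rule for named genes were chosen with earlier results of these data known. The rule allowed every transporter, first those past the threshold, then up to 4 per role group by p, and up to 4 genes per further list by p. Further amino acid response genes were named beyond it. The number of arrays limits the precision.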

Additional observations from a re-analysis of the deposited data

Results flagged for a closer look

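Outside the comparisons, the control gene ACTB showed a gap between its 3′ and 5′ probe sets that averaged 0.486 log2 units on the miR-20a arrays and 0.272 on the miR-NT arrays, while for GAPDH it averaged 0.275 and 0.222.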

How the results depend on the processing

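Of 328 values of 28 named transporter probe sets under other settings, 315 kept their sign and their side of the threshold, 6 came to pass it and 7 turned sign. The count of transporter probe sets past the threshold, 0 as reported, was 1 without the lowest 40% of probe sets (28 of the 77 then left out). It was 5 with a trend and robust fit. Of all probe sets, 1.33% and 2.28% passed in these settings. At an unadjusted p under 0.05 the count was 13 as reported (17.9% of all probe sets). It was 8 of 35 with 1 probe set per gene (21.8% of all genes), where fewer features were counted. With an array left out, the median change of the transporters lay between -0.033 and 0.0026, against -0.028 to -0.012 over all probe sets. With the replicate number as a block, 0 passed and 12 had an unadjusted p under 0.05, and over all probe sets 0 passed where 57 had passed (limma, 5754 at an unadjusted p under 0.05). The labels state no pairing, so the numbers were not taken as pairs. Same-numbered arrays deviated from their group means with a correlation of -0.12 over probe sets, which cannot decide on pairing with so few arrays. With a crossed pairing 0 transporters passed and 11 had an unadjusted p under 0.05 (limma), against 0% and 17.5% of all probe sets. Signs turned for SLC1A5, from -0.029 to 0.0041 after median centring, and for SLC1A4 and SLC1A7, from -0.22 and -0.10 to 0.028 and 0.026 by their brightest probe set, which is not the one named. With an array left out, SLC3A2 ranged from -0.10 to 0.033, SLC7A3 from -0.29 to 0.032 and SLC36A4 from -0.11 to 0.14, and the cause was not tested. In all, leaving out 1 array moved the change of 14 of the 28 named probe sets by over 1.5 times. These include SLC1A5, SLC36A4 and SLC3A2, with changes of -0.029, 0.014 and -0.036 as reported, so close to zero that a ratio says little. The same share over all probe sets is not given here. With 1 array left in a group, it was assumed to vary like the others. In simulations with 200 changed probe sets, few changes of 0.5 log2 units were recovered, which is near the size of the largest transporter changes here.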
